A study of Mus musculus with 3 samples.

Results

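Of 18945 CTCF peaks called in one library of mouse LSK cells, 906 peaks (4.78%, 95% Wilson interval 4.49 to 5.10) lay at the start of a noncoding gene and at no protein-coding gene start. A peak was counted where at least 1 base of it fell within 1 kb of the transcription start site (TSS) of a GENCODE M21 gene record whose type was not protein coding, and where it touched no such window of a protein-coding record. There were 1141 peaks at a noncoding start, and 235 of them (20.6%) were left out because a coding start lay there too. The 906 peaks touched the windows of 943 noncoding records in all. At the edge of the window, the 48 members whose nearest base was in its outermost 100 bp had a median fold enrichment of 10.93 and held the core CTCF motif in 29.2%. The 45 peaks that missed the window by up to 100 bp had 10.77 and 42.2%. Both sets are small and no interval was computed for them, so a difference in motif share at the edge is not shown. A single record was in reach of 852 peaks, 50 peaks touched 2 records, 2 touched 3, 1 touched 4 and 1 touched 5.

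The cells were from the bone marrow of adult male C57BL6 mice, and were sorted as lineage-negative, Sca1-positive and cKit-positive (LSK), a fraction that holds the blood stem cells and the early multipotent progenitors. Cells carrying CD4, CD8, IL7Ra, CD11b, Ly6g, CD45R or Ter119 had been removed. The mice carried no engineered allele and received no treatment that the labels name, and CTCF-bound DNA was recovered by chromatin immunoprecipitation and sequenced. There was 1 library with peaks and no replicate, so no test between samples was possible, and the 2 input libraries, from LSK cells and from megakaryocyte and erythroid progenitors, were not analysed here. A list of CTCF peaks holds no cell type marker against which the sort could be checked.

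CTCF is a zinc finger protein that binds a long, nonpalindromic DNA motif, stops the loop-extruding cohesin ring in an orientation-dependent way, and so marks the anchors of chromatin loops and the borders of domains. Many noncoding genes produce RNAs that are poorly conserved and little expressed, and their annotated starts range from genuine promoters of long intergenic RNAs (lincRNAs) to the first base of a processed pseudogene, which is a retrotransposed copy of a messenger RNA with no promoter of its own. Immunoglobulin (IG) and T cell receptor (TR) gene segments also fall outside the protein-coding type in this annotation although they encode parts of antigen receptors. They are therefore among the 906 peaks by the rule, and are called segments here rather than noncoding genes.

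Each peak was given the group of the record whose TSS lay nearest to its midpoint. By that record, 237 peaks were at lincRNAs, 198 at pseudogenes, 146 at small RNAs, 133 at antisense RNAs, 75 at TEC records (transcribed regions still awaiting experimental proof), 63 at IG or TR segments and 54 at other long noncoding RNAs, mainly processed transcripts and sense-intronic RNAs. The small RNA records with such a peak were 61 small nucleolar RNAs, 55 microRNAs, 35 small nuclear RNAs and 20 of other kinds.

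The following sequences are exact matches to the core CTCF motif found within peaks at these starts. Such a match was present in 359 of 906 members, and which bases of a peak CTCF bound was not measured. The core of the CTCF motif is 12 bases long, and in each line it stands in capitals with 15 bases to either side, read 5′ to 3′ on the strand of the motif. Coordinates are mm10, and the letters are from RefSeq's GRCm38.p6 assembly, whose chromosomes are the same. The first set holds members of each noncoding group, either the site closest to the TSS in its group or a site of one of the strongest peaks.
Gm2109 (lincRNA, chr9:83691454-83691495, minus strand): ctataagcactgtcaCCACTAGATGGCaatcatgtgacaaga
Zfp469 (lincRNA record, chr8:122269608-122269649, minus strand): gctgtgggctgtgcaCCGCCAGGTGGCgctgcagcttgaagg
Gm13031 (antisense, chr4:140958025-140958066, minus strand): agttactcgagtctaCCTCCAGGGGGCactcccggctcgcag
Snhg7os (antisense, chr2:26640311-26640352, minus strand): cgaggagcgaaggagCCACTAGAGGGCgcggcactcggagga
Gm45463 (processed transcript, chr8:93011619-93011660, plus strand): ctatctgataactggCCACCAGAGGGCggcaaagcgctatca
Gm41504 (TEC, chr16:94713901-94713942, minus strand): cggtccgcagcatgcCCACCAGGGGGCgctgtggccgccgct
Rpl5-ps2 (processed pseudogene, chr2:154703033-154703074, plus strand): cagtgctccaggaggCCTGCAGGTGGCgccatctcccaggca
Gm11200 (processed pseudogene, chr11:79214112-79214153, minus strand): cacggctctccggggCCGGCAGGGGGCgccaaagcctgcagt
Gm23405 (snRNA, chr4:150964728-150964769, plus strand): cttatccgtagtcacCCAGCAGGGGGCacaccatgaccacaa
In Gm2109 the middle of the motif was on the TSS itself. The motif lay 14 bp downstream of the start of Gm23405 and 21 bp downstream of that of Gm45463, 19 bp upstream of Gm41504 and 40 bp upstream of Snhg7os, the antisense partner of a snoRNA host gene. The peak of Gm23405 was among the weakest, with a fold enrichment of 4.57, which ranked 18840 of all 18945 peaks.

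The second set holds sites of the T cell receptor alpha V segments (Trav), most of them present in several copies, and a pair of sites of the immunoglobulin heavy chain V segments (Ighv). They are shown because IG and TR segments as a group had the highest peak frequency, which came from Trav.
Trav9n-4 (segment, chr14:53294281-53294322, plus strand): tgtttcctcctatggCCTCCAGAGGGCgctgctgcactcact
Trav6-6 (segment, chr14:53516783-53516824, plus strand): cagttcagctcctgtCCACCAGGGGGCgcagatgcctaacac
Trav8-2 (segment, chr14:53738138-53738179, plus strand): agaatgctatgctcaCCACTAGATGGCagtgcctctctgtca
Trav3d-3 (segment, chr14:52972351-52972392, plus strand): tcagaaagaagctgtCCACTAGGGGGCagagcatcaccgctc
Trav4d-4 (segment, chr14:52990135-52990176, plus strand): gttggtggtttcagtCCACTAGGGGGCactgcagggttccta
Trav12d-3 (segment, chr14:52929583-52929624, plus strand): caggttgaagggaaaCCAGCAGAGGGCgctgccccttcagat
Ighv4-1 (segment, chr12:113948195-113948236, minus strand): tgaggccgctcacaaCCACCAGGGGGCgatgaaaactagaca
Ighv5-17 (segment, chr12:113859064-113859105, minus strand): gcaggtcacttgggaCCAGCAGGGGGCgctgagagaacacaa
The whole 42-base line of Trav9n-4 was identical in the peaks of Trav9d-4 and Trav9-4, that of Trav6-6 in Trav6d-6 and Trav6n-6, that of Trav8-2 in Trav8d-2 and Trav8n-2, that of Trav4d-4 in Trav4n-4 and Trav4-4-dv10, and that of Trav12d-3 in Trav12n-3 and Trav12-1. The line of Trav3d-3 was shared with Trav3n-3. The 2 Ighv lines were each found in 1 peak.

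The strongest peak had no such site. It is printed here as the 200 bases at its middle, in lower case throughout because the core motif was absent on both strands.
AC122818.2 (lincRNA, middle of the peak, chr17:87571719-87571918, plus strand): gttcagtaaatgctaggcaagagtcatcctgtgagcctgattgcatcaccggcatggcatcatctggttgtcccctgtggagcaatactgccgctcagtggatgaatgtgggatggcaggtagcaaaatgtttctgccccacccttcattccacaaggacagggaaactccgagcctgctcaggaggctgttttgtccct
The whole peak of AC122818.2, chr17:87571342-87572296, had a fold enrichment of 39.81, which ranked 3 of all 18945 peaks, and its best match to the core motif differed at 2 bases. The TSS of this lincRNA was inside the peak, and the nearest coding start, that of Epcam (an epithelial adhesion molecule), was 64325 bp away.

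A CTCF peak was a rare feature of a noncoding start. Among the 29337 noncoding records whose TSS was more than 2 kb from any coding TSS, so that their windows were clear of coding windows, 907 (3.09%, 2.90 to 3.30) had one of the 906 peaks. Of the 21755 protein-coding records, 1869 (8.59%, 8.23 to 8.97) had a peak in the same window. That count takes all coding records and any peak. Counted in that way, 1180 of 32088 noncoding records had a peak, with 214 of 2958 at antisense RNAs and 95 of 1340 at other long noncoding RNAs. All intervals in this text are for 95% confidence and cover counting error only, since they come from 1 library. They also count duplicated copies of a segment as separate records or peaks.

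The frequency depended on the kind of gene. A peak was present at 5.86% of clear antisense records (4.94 to 6.94), at 5.85% of other long noncoding records (4.44 to 7.67) and at 4.86% of lincRNA records (4.29 to 5.50), all above the 3.09% of clear records as a whole. Small RNAs had a peak at 2.86% (2.46 to 3.33), TEC records at 2.52% (2.01 to 3.15) and pseudogenes at 1.60% (1.39 to 1.84). The difference between lincRNAs and pseudogenes was 3.26 percentage points (2.64 to 3.93, Newcombe interval), and that between lincRNAs and antisense RNAs, at -0.999 points, had an interval that included 0 (-2.22 to 0.12). Small RNAs and TEC records also differed by an amount whose interval included 0 (0.34 points, -0.41 to 1.03). IG and TR segments stood above all of these at 9.40% (7.46 to 11.8), which was 3.54 points above the antisense records (1.32 to 6.10).

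**Figure D1:**
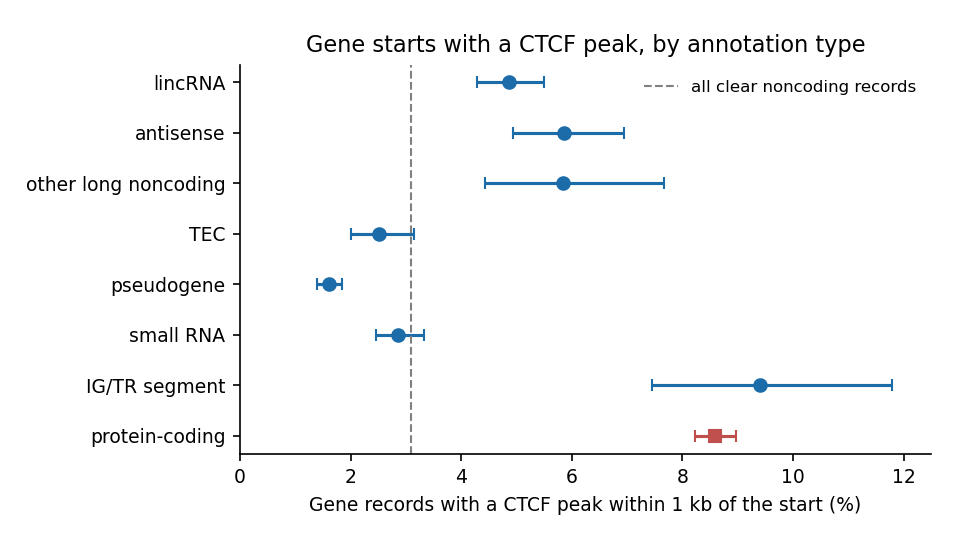
Share of gene records with a CTCF peak within 1 kb of the TSS in LSK cells, in percent, by annotation type, with 95% Wilson intervals as bars. The circles are noncoding records clear of coding windows, the square is all protein-coding records, and the dashed line is the 3.09% of all clear noncoding records. Pseudogenes are lowest at 1.60% and IG/TR segments highest at 9.40%.

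Within the groups, gene types differed further. Processed transcripts had a peak at 38 of 480 clear records (7.92%, 5.82 to 10.7), small nucleolar RNAs at 56 of 1409 (3.97%, 3.07 to 5.13), microRNAs at 52 of 1967 (2.64%) and small nuclear RNAs at 33 of 1326 (2.49%). Processed pseudogenes, the retrotransposed copies, had a peak at 164 of 9689 (1.69%, 1.45 to 1.97). Unprocessed pseudogenes, which come from gene duplication, had a peak at 13 of 1916 (0.68%, 0.40 to 1.16). Unitary pseudogenes, which are genes inactivated in the mouse with no functional copy left, were few, and 3 of 24 had a peak. Of all peaks 4.78% belonged to the set. On the X chromosome 6 of 248 did (2.42%), and on chromosome 14 95 of 828 (11.5%), where 50 of the 95 were at Trav segments. On the other chromosomes the share ran from 3.45% on chromosome 15 to 6.45% on chromosome 3.

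Because records differ in number and overlap, peaks were also counted per length. The windows of noncoding records outside coding windows covered 58.1 Mb and held 13.0 peak midpoints per Mb (12.1 to 14.0, exact Poisson interval). Coding windows held 36.3 per Mb (34.5 to 38.2), and the rest of the genome 6.59 per Mb (6.49 to 6.69). Pseudogene windows, at 6.10 per Mb (5.16 to 7.16), had an interval that included the density of the rest of the genome. The density was 24.97 per Mb at antisense RNAs, 24.2 at other long noncoding RNAs, 21.1 at lincRNAs, 11.9 at small RNAs and 11.1 at TEC records. Segments of the antigen receptors reached 47.7 per Mb (36.5 to 61.3).

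The strength of the peaks was close to that of peaks elsewhere. The deposited fold enrichment of the 906 peaks had a median of 10.44 (10.12 to 10.77, order-statistic interval) and ran from 2.90 to 39.81. The median was 10.44 at the 1767 peaks of coding starts and 10.12 at the 16272 peaks at no gene start. By group the medians ran from 9.79 at pseudogenes (9.46 to 10.77) to 11.42 at lincRNAs (10.77 to 12.07) and 11.75 at IG and TR segments (9.79 to 13.05). Peaks whose record started inside a coding gene had a median of 9.79 (9.14 to 10.54), and those outside coding genes one of 10.77 (10.33 to 11.15).

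**Figure D2:**
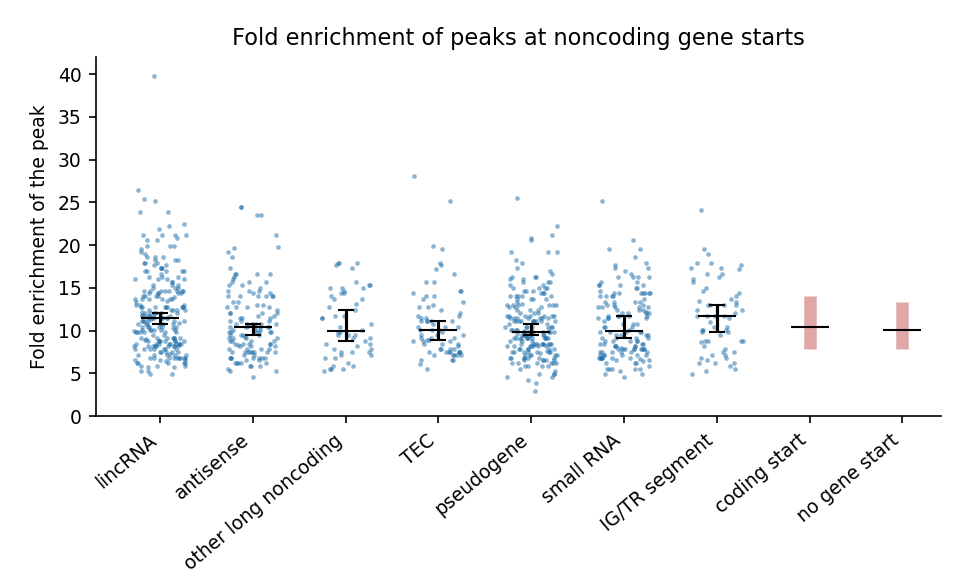
Fold enrichment of each of the 906 peaks, as deposited, by the group of the nearest noncoding record. Each dot is 1 peak, the black line is the median with its 95% order-statistic interval, and for peaks at coding starts and at no gene start the bar spans the middle 50% of peaks around the median line. The groups overlap almost wholly, with medians from 9.79 to 11.75 and a single lincRNA peak at 39.81.

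After AC122818.2, the strongest peaks were at Gm45546 (TEC, fold enrichment 28.06), Gm33195 (lincRNA, 26.43), Gm13413 (processed pseudogene, 25.55) and 1700063D05Rik (lincRNA, 25.45). A fold of 25.12 was reached at Gm43246 (TEC), at Gm31812 (lincRNA) and at a peak shared by Rn7s2 and the microRNA record Gm47299. Rn7s2 is a 7SL-type RNA, the RNA part of the signal recognition particle. The midpoint of the peak was 644 bp downstream of its TSS, beyond the end of the gene. The antisense records Gm15958, within the collagen-binding gene Ccbe1, and Gm13031, 3301 bp from the start of the mitochondrial enzyme gene Sdhb, each had 24.47. The core motif was present in 2 of these 10 peaks, and 6 of 10 held it once 1 mismatch was allowed. Over all members these shares were 39.6% and 85.2%. The 8 strongest all lacked the exact motif, a cut set after the values were seen. Lack of the motif was not a trait of strong members as a whole. Of 4 equal parts by fold enrichment, the strongest held it in 46.7% and the weakest in 34.1%.

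Among lincRNAs with a gene symbol of their own, Epb41l4aos, whose body also holds the small nucleolar RNA Gm23639, had the strongest peak, at 20.56 with the TSS inside it. Next came the lincRNA record Zfp469, named for a zinc finger gene but not typed as coding in this annotation, at 19.90 and with the motif 60 bp downstream of its TSS. D5Ertd615e followed at 17.62. Rab26os, antisense to the vesicle-traffic GTPase gene Rab26, shared a peak of 18.60 with the small nucleolar RNA Snord60, and that peak was 1106 bp downstream of the Rab26os start. Sox6os, antisense to the erythroid transcription factor gene Sox6, had a peak of 14.36, and BC065403 one of 12.73. Gm16538 came next among all antisense records after Gm15958 and Gm13031, at 23.49.

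A peak of 19.90 was over the start of the lincRNA 1110013H19Rik, and the record C330013E15Rik, of the other long noncoding group, was within reach of it at 1244 bp from the midpoint. By the nearest record, other long noncoding RNAs were led by Gm11947 and D430018E03Rik, both at 17.95. The snoRNA hosts Snhg17 and Snhg15 and the processed transcript AI506816 had weaker peaks, at 10.44, 6.20 and 8.48, each with the TSS inside the peak and a CpG-rich sequence. Among TEC records Gm49653 came next after Gm45546 and Gm43246, at 19.90. Pseudogenes were led, after Gm13413, by Gm11200 at 22.19 and by the ribosomal protein pseudogene Rpl5-ps2 at 21.21. Rpsa-ps12 (19.25) and Best4-ps (16.31) followed among pseudogenes named for their parent gene.

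Among small RNAs the TSS was outside the peak for 97 of 146. Mir6921, within the sterol regulator gene Srebf1, had a peak of 17.62 centred 793 bp downstream, and Gm47282, in Ampd3, had one of 20.56 centred 1197 bp upstream. Gm23639 shared the peak of Epb41l4aos. The most crowded peak, chr4:132309749-132310302, had a fold enrichment of 4.89 and 5 records in reach, namely Snora44, Snora61, Snord99 and a pair of records for Snora16a. All of them are small nucleolar RNAs, which guide chemical modification of ribosomal RNA. The peak with 4 records lay at Snora17, with a pair of Snora43 records and Snhg7os, and had a fold enrichment of 6.20. Snhg7os had another peak, of 12.73, over its own start.

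Among listed regulatory RNAs, the snoRNA hosts Snhg17 and Snhg15, the 7SL-type RNA Rn7s2, the vault RNA Vaultrc5 (fold enrichment 9.79), the Hox cluster antisense RNA Hoxd3os1 (9.46), the imprinted RNA Peg13 and Epb41l4aos had a member peak. Over all clear noncoding records 3.09% had one. Among clear records of the lists, a peak was present at 2 of 8 snoRNA hosts, 2 of 6 structural RNAs and 1 of 5 Hox cluster RNAs. It was present at 1 of 8 nuclear and cancer-associated RNAs and 1 of 10 imprinted RNAs. The lists were chosen with earlier results of these data known, so a share above 3.09% is not evidence of enrichment. None of 5 X inactivation RNAs had a member peak, Xist and Tsix included, nor did any of 30 microRNA genes known from blood cells, some host RNAs included. Among all clear microRNA records the share was 2.64%, so none of 30 is near that share. A start here is the 5′ end of the annotated record, so a promoter further away was not examined. Peg13, the paternally expressed RNA within Trappc9, had a fold enrichment of 5.55, 2 core motifs and the TSS inside the peak. The 7SL-type record Rn7s1 had a peak too, which the rule left out because the start of the coding gene Rps29 lay in reach.

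The position of the peak relative to the TSS differed between the groups. The TSS was inside the peak for 338 of 906 (37.3%, 34.2 to 40.5), and the median distance from TSS to peak midpoint was 527 bp (494 to 585). Midpoints spread evenly over the same windows would have given a median of 679.3 bp. Pseudogene peaks, at 733.5 bp (661 to 805), lay no closer than that, and their TSS was inside the peak for 26.8%. LincRNA peaks lay 505 bp from the TSS (402 to 601), and 40.9% covered it, 14.2 percentage points more than at pseudogenes (5.22 to 22.7).

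LincRNA peaks were concentrated just upstream of the start. Of their 237 midpoints, 60 fell in the 200 bp before the TSS, and the next 200 bp downstream held 16. The midpoint was upstream for 143 of 237 lincRNA peaks (60.3%) and for 57 of 146 small RNA peaks (39.0%), a difference of 21.3 percentage points (11.0 to 30.9). Small RNA peaks had their fullest bin in the 200 bp after the TSS, with 28 of 146 midpoints, as did pseudogenes, with 25 of 198.

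**Figure D3:**
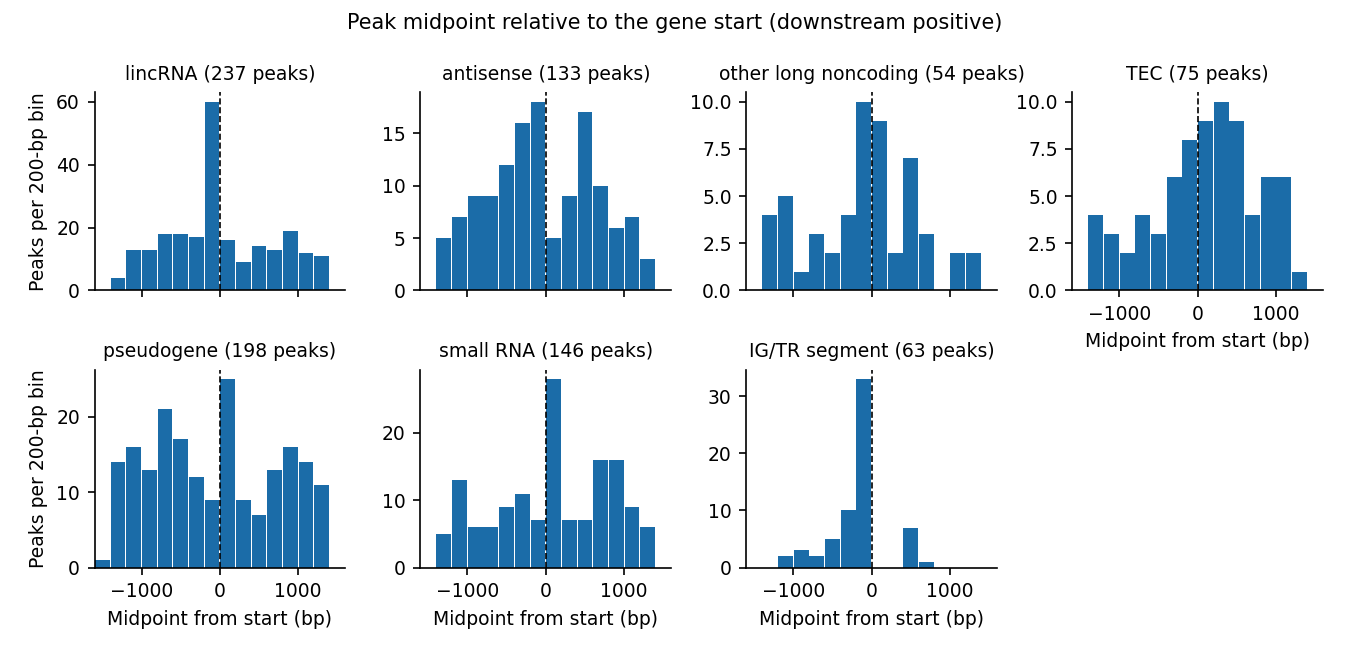
Distance of peak midpoints from the TSS of the nearest noncoding record, in bp with downstream positive, as counts of peaks per 200-bp bin in 7 panels, 1 for each group. The dashed line is the TSS. LincRNA peaks have a single tall bin of 60 peaks just upstream, IG/TR peaks lie almost wholly upstream apart from a small downstream cluster, and pseudogene peaks are spread over the window.

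Antisense records are typed by lying opposite another gene, so the place of their TSS within coding genes largely follows from the annotation. The TSS of the nearest antisense record was within a coding gene for 100 of 133 peaks, and 1 of those 100 host genes was on the same strand. The TSS was within a coding gene for 66 of 146 small RNA peaks, where 44 of 66 hosts were on the same strand. It was so for 18 of 237 lincRNA peaks. The share over all records of each group was not counted, so these counts are not shown to be traits of the peaks. Over all 906 peaks the nearest coding TSS was a median of 24996.5 bp from the noncoding TSS (20374 to 27946).

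The core motif, searched on both strands with no mismatch, was present in 359 of 906 peaks (39.6%, 36.5 to 42.8). Across all 18945 peaks the share was 35.6%. The members exceeded peaks at coding starts, at 29.8%, by 9.86 percentage points (6.04 to 13.7), and peaks at no gene start, at 36.0%, by 3.59 points (0.37 to 6.89). Windows of the same width placed 10 kb to the left and right of the members held it in 1.32% and 1.43%. With 1 mismatch allowed the share was 85.2%, against 83.6% of all peaks. The difference from peaks at no gene start was then 1.13 points, with an interval that included 0 (-1.39 to 3.37). Without the IG and TR segments the exact motif was in 37.8% of members (34.6 to 41.2). That interval included the 36.0% of peaks at no gene start. The 8 members with 2 or more core motifs included Peg13 and D430018E03Rik.

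By group the motif was in 63.5% of IG and TR peaks (51.1 to 74.3), 44.0% of TEC peaks, 39.9% of pseudogene peaks, 39.8% of antisense peaks, 37.1% of lincRNA peaks, 34.9% of small RNA peaks and 27.8% of other long noncoding peaks (17.6 to 40.9). Peaks at segments exceeded the other members by 25.7 percentage points (12.9 to 36.9). Peaks with the TSS inside held the motif more often than peaks beside the TSS, at 45.9% against 35.9%, and the difference of 9.94 points (3.34 to 16.5) was 8.01 points (1.14 to 14.9) once segments were left out. Ordered by fold enrichment and divided in 4 equal parts, the members held the motif in 34.1%, 33.0%, 44.7% and 46.7% from the weakest to the strongest part.

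The ratio of observed to expected CpG was above 0.6, a level typical of CpG islands, in 74 of 906 peaks (8.17%, 6.56 to 10.1), against 7.36% of all peaks, 49.2% of peaks at coding starts and 2.77% of peaks at no gene start. Other long noncoding RNAs stood out with 14 of 54 (25.9%), 18.9 percentage points above the remaining members (8.89 to 32.0). Where their TSS was inside the peak, 11 of 23 were CpG-rich. No IG or TR peak of 63 was. Bases marked as repeats made up over 50% of 48 peaks (5.30%, 4.02 to 6.95), near the 6.19% of all peaks, and small RNAs had the largest share of such peaks at 12.3%.

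To see how often a noncoding start with the motif had a peak, the core motif was searched in the 2-kb windows of all 29337 clear records. It was present in 823 windows (2.81%), and 306 of these (37.2%, 33.9 to 40.5) had a member peak, against 601 of 28514 windows without it (2.11%, 1.95 to 2.28). The motif was itself inside a peak in 296 of the 823. The share of motif windows with a member peak was 51.6% at lincRNAs, 53.1% at antisense RNAs, 27.7% at small RNAs and 23.8% at pseudogenes. In this share lincRNAs exceeded pseudogenes by 27.7 percentage points (18.4 to 36.7). The motif itself was inside a peak in 49.7%, 51.9%, 25.5% and 22.4% of the motif windows, in the same order of groups. Motif frequency itself was 3.26% of windows at lincRNAs and 2.30% at pseudogenes.

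**Figure D4:**
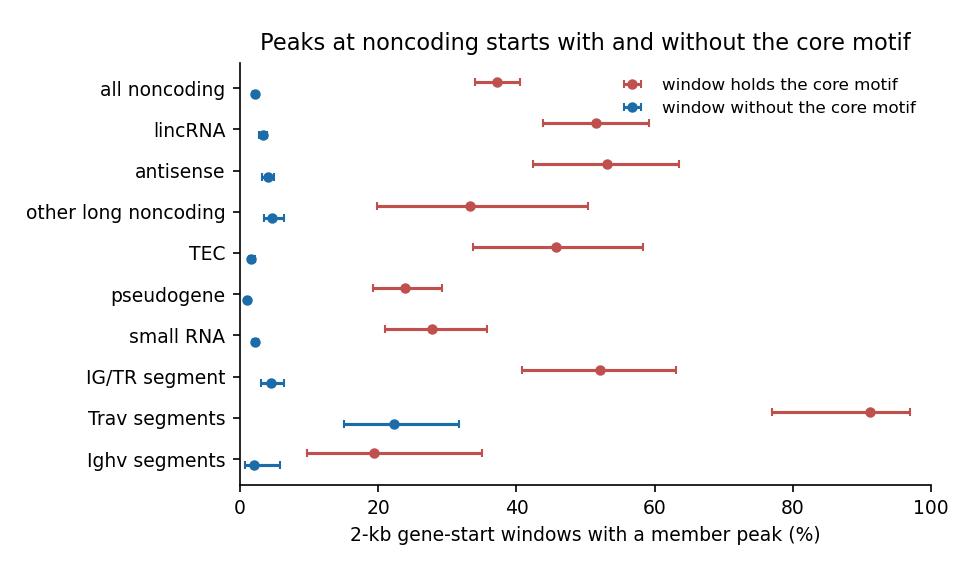
Share of 2-kb windows around clear noncoding gene starts that have a member peak, in percent with 95% Wilson intervals, for windows with the exact core motif (red) and without it (blue), by group and for the Trav and Ighv segments. Windows with the motif are far above those without it in each group, and Trav windows with the motif reach 91.2%.

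Antigen receptor segments made up 63 of the members. V segments are joined to other segments by the recombinase of developing lymphocytes, and CTCF sites beside them are known to take part in folding these loci. Among these peaks, 50 were at Trav, 9 at Ighv, 3 at Trbv and 1 at Tcrg-V7, a gamma chain segment. By record, 52 of 128 Trav segments had a peak (40.6%, 32.5 to 49.3), as did 10 of 185 Ighv segments (5.41%), 3 of 35 Trbv segments and 1 of 6 Tcrg-V segments. No peak was found at 160 Igkv segments, which allows a share of up to 2.34%, or at 60 Traj segments, which allows up to 6.02%. Neither of these had the core motif in any of its windows. Trav segments span chromosome 14 from 52427928 to 53977153, and 51 of the 73 peaks in that interval were members, 50 of them at Trav segments.

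Trav peaks divided by segment family. All 52 segments with a peak came from 10 families with 84 segments, and the other 13 families, with 44 segments, had no peak. The exact core motif was in 34 windows of the 10 families and in none of the 44. Of the 34 windows with the motif, 31 had a member peak (91.2%, 77.0 to 97.0). That share was 55.4 percentage points (40.9 to 62.1) above motif windows at noncoding genes other than segments, of which 35.7% had a peak. Both intervals count duplicated copies as separate windows. Of 33 Trav peaks with the motif, 29 shared its 42-base surroundings with another peak, and reads mapping to several places had been kept. The copies are therefore not independent, and the share was not recomputed over distinct sites.

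Families differed in how complete they were. Every one of 11 Trav9 segments had a peak with the motif, with fold enrichments from 10.12 to 16.31. The 8 of 10 Trav12 segments with a peak all held the motif but were weaker, at 5.87 to 10.12. Trav6 had a peak at 7 of 15 segments, with the motif in 3 peaks, and the highest Trav value, 19.58 at Trav6d-6. The 3 Trav10 segments had strong peaks, at 18.93 for Trav10n, 17.62 for Trav10 and 15.99 for Trav10d, that held the motif only with 1 mismatch. Trav8 had a peak at 3 of 5 segments, Trav3 at 5 of 8, Trav4 at 5 of 9, Trav5 at 6 of 9, Trav7 at 3 of 13, and the single Trav17 segment had one. The largest families without a peak were Trav13, with 12 segments, and Trav14 and Trav15, with 9 each.

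All 50 Trav peaks were centred upstream of their segment, and 42 covered its start. The motif was on the strand of the segment in 33 of 33 peaks that had it. It lay 39 to 306 bp upstream of the start in all families except Trav4, where it lay 710 to 1210 bp upstream. Trav3 and Trav4 had the same 12-base core, CCACTAGGGGGC, at different distances and within different flanking bases. Copies of a segment in the d, n and unmarked series, which come from duplication of this part of the locus, had the same 42 bases around the motif in 29 of 33 peaks. Fold enrichments of identical copies were 17.95, 19.58 and 17.29 for Trav6-6, Trav6d-6 and Trav6n-6, and 13.03, 16.31 and 13.38 for Trav9d-4, Trav9n-4 and Trav9-4. Other copies were further apart, from 11.75 to 17.29 in Trav8 and from 5.87 to 10.12 in Trav12d-3, Trav12n-3 and Trav12-1. Reads that map to several places had been kept, so the signal of such copies is not independent.

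**Figure D5:**
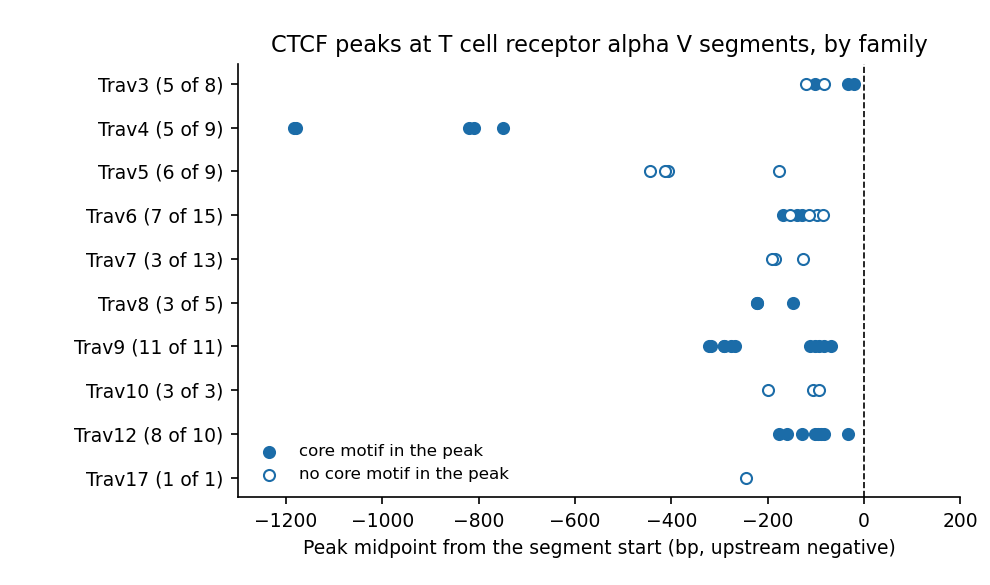
Midpoint of each of the 50 Trav peaks relative to the start of its segment, in bp with upstream negative, by family. Filled circles are peaks with the exact core motif and open circles are peaks without it, and the label of each family gives the segments with a peak out of all its segments. All points lie upstream of the start, within 445 bp except in Trav4.

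Ighv peaks had the opposite position. In 8 of 9 the midpoint was downstream of the segment start, by 473 to 656 bp, beyond the annotated end of the segment in each of the 8, and the exception, the pseudogene segment Ighv1-65, had its peak 855 bp upstream. None of the 9 covered a start. The motif was present in 7 of 9 and on the strand of the segment in 6 of 7, the other being Ighv11-1. The strongest were Ighv4-1 at 14.03, Ighv12-3 at 12.07 and Ighv5-17 at 11.42. Of 36 Ighv windows with the core motif, 7 had a peak (19.4%, 9.75 to 35.0), which was 71.7 percentage points below the Trav share (50.7 to 83.0). The interval of this difference also counts duplicated Trav copies as separate.

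The 3 Trbv peaks lay upstream of Trbv12-2, Trbv12-1 and Trbv2, with none covering the start. Trbv12-1 had the strongest peak of any segment, 24.15, with the core motif only at 1 mismatch. Trbv12-2 had 11.75 and Trbv2 had 8.81.

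The motif was mostly on the strand of the gene in segment peaks, and on either strand in the rest. Where a member had exactly 1 motif, it was on the strand of the gene for 39 of 40 segment peaks (97.5%, 87.1 to 99.6). The same held for 148 of 311 other members (47.6%), a difference of 49.9 percentage points (38.1 to 55.8). Of the 40 segment peaks, 33 were at Trav, with 16 distinct 42-base surroundings of the motif, and 7 at Ighv. The intervals count duplicated copies within these loci as separate sites. Among members with 1 motif and records on 1 strand only, segments included, the share was 182 of 340 (53.5%, 48.2 to 58.8). By group the share was lowest at pseudogenes, with 26 of 76 (34.2%, 24.5 to 45.4). Small RNAs had 32 of 51 (62.7%), with an interval that included an even split (49.0 to 74.7). Pseudogenes and small RNAs, 1 of several possible pairs of groups, differed by -28.5 points (-43.9 to -10.8). TEC records had 12 of 32 (37.5%, 22.9 to 54.7) and other long noncoding RNAs 9 of 13 (69.2%, 42.4 to 87.3). LincRNAs had 42 of 86 (48.8%) and antisense RNAs 27 of 53 (50.9%).

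Sites present in more than 1 copy were also found outside the segments. A motif whose 42-base surroundings occurred in another peak was present in 35 of 359 members with the motif (9.75%). The share was 1.90% over all peaks with the motif, 1.14% at coding starts and 1.48% at no gene start. Of the 35, 29 were at segments, so the excess of the members came from these. Outside the segments such a site was in 4 of 79 pseudogene, 1 of 51 small RNA and 1 of 33 TEC peaks with the motif, and in 0 of 88 at lincRNAs. The others included an identical site at the vomeronasal receptor pseudogene Vmn2r-ps31, where the motif lay 11 bp from the TSS, and at Gm22722, with folds of 12.40 and 13.38. Another was shared by Gm37503 (14.03) and AC087233.2 (12.73), which are on different chromosomes.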

How the data were processed

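Per the labels, reads were demultiplexed with bcl2fastq and aligned to mm10 with Bowtie 1.0.0, and the authors called peaks with MACS. Multiply mapping reads had been kept, and reads on the mitochondrial and unplaced sequences removed. For each peak the deposited table holds its position with a fold enrichment (a ratio over background), the −log10 of its p-value, and an estimated q-value, whose scale the table does not state. Read depth could not be taken from it.

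Peaks were joined to GENCODE M21 gene records and to the GRCm38.p6 sequence in Python 3.11.15 with numpy 2.4.6, pandas 2.3.3 and scipy 1.17.1. Shares have Wilson, differences Newcombe, medians order-statistic and densities exact Poisson intervals. The motif search, the overlaps and the intervals were checked on simulated data. Named genes are the 10 strongest members, the 3 strongest of each group with and without clone-type names, listed RNAs, peaks with most records and the motif nearest the TSS in each group. Segment families and shared sites were named after their values were seen. The members and lists were chosen with earlier results of these data known. Windows, peak strictness, transcript starts, gene types and motif settings were varied.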

Additional observations from a re-analysis of the deposited data

How the results depend on the processing

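Of 52 values under alternative settings, 39 stayed within the 95% interval of the value reported, or within 1.5 times of it for the count of members, and 13 did not. With only the 50% of peaks that had the lowest q-value, there were 471 members, 1.61% of clear records had one, the core motif was in 43.3% of members, their median fold enrichment was 13.42 and noncoding windows held 6.47 midpoints per Mb. With windows of 500 bp, 2.25% of records had a member and the density was 15.6 per Mb, and with windows of 2 kb these were 4.62% and 10.6 per Mb. Requiring at least 50% of the peak in the window gave 2.48% of records. The motif share was 85.2% with 1 mismatch and 35.5% in the central 200 bp. Without IG and TR segments the motif was on the strand of the gene in 47.7% of the members that had 1 motif and records on 1 strand. Some of these directions were fixed by the setting. Fewer peaks or a stricter overlap cannot raise the share of records. A shorter stretch of the peak cannot raise the motif share, and an allowed mismatch cannot lower it. The cause of the other changes was not tested. Counting every transcript start, or leaving out TEC records, moved none of the values recomputed under it past its interval. Keeping 1 peak for each identical site, and the strand of the motif with 1 mismatch allowed, were alternatives chosen after seeing the data, and neither moved past it. No paired analysis was possible because there was 1 library with peaks, and no replicate could be left out. The depth of that library was not in the file, so the share of weak sites that were missed is unknown.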

Other observations

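Further microRNA genes had a member peak at a distance from their start, and these were chosen after their values were seen. Mir342, within Evl, had a fold enrichment of 7.18 with the core motif, and Mir193a had 9.14 with the motif. Mir129-1, with 11.42, had it as well. Mir148b, within Copz1, had 8.81, Mir484 had 8.81 and Mir615, within the Hoxc5 gene, had 6.85, all of them without the exact motif. The small Cajal body RNA Scarna2, which guides modification of spliceosomal RNAs, had a peak of 14.36 whose midpoint was on its TSS. The lincRNA Gm41414 had one of 20.88 centred 6 bp upstream of its start.

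Of the 906 peaks, 72 (7.95%) lay within 1 kb of the start of a protein-coding transcript other than the one that sets the start of its gene record, and leaving these out gave 834 members. The closest pair of any member and another peak was separated by 24 bp. The median gap from a member to the nearer of its neighbouring peaks was 15332 bp (13615 to 16850), against 18254 bp (17682 to 18733) over all peaks.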
